A study of Mus musculus with 8 samples.

Results

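Histone H3 acetylated at lysine K27 (H3K27ac) marks active promoters and active enhancers, the distal stretches of DNA that bind transcription factors and raise the activity of genes that may lie far away. A wide distal domain of the mark is often read as an enhancer or a group of neighbouring enhancers, and such domains change as a precursor cell leaves the cell cycle and matures. Oligodendrocyte precursors divide under growth factors and become the myelinating cells of the central nervous system once those signals are withdrawn.

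Described here are 1956 wide distal H3K27ac regions that were called in proliferating Oli-neu cells and had no counterpart in differentiating ones. Each was a peak of the proliferating list at least 1200 bp wide that shared no base with a differentiating peak. Nor did it share a base with a promoter region, taken as 3000 bp upstream to 100 bp downstream of a protein-coding gene start. They were 6.76% of the 28924 proliferating peaks and covered 2.90 Mb, or 13.2% of the acetylated sequence of that list. The regions were chosen by the peak calls of both libraries and by peak width, so width, absence from the differentiating list and distance from promoters are descriptions and not findings.

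Oli-neu is a mouse oligodendrocyte precursor line of embryonic origin, here labelled C57BL/6, and 1 H3K27ac library was made per state. Proliferating cells were kept in medium with N2 supplement, T3, L-thyroxine, bFGF and Pdgf-BB. Differentiating cells of the same line received medium lacking growth factors for 1 day, together with 1 μM of the ErbB inhibitor PD174265; the study's methods state another duration. Both libraries used the same antibody, and 6 ATAC-seq samples with siRNA to Padi2 or control siRNA (3 each) were not analysed here. With 1 library per state there is no replicate error and no test between states, and intervals below are 95% exact ones that cover counting error only.

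As a check of the label, all 11 genes of an oligodendrocyte lineage list carried a peak in the promoter region or the gene body in the proliferating list, and 10 did in the differentiating list. Promoter peaks lay at 4 of them in each state, namely Gpr17, Olig1, Olig2 and Sox10. Of all protein-coding genes, 23.7% had a promoter peak in the proliferating and 27.7% in the differentiating list. Of 5 astrocyte markers, 2 (Gja1 and Slc1a3) had a proliferating promoter peak and 0 a differentiating one, and of 7 neuronal markers Gad1 had one in the proliferating and Syt1 in the differentiating list. None of 5 microglial and 4 endothelial markers had a promoter peak in either state. Counted by promoter or gene body, as for the lineage list, 4 neuronal markers had a proliferating and 5 a differentiating peak, and 3 astrocyte, 1 microglial and 2 endothelial markers had one in each list. The share of all genes with a peak by promoter or gene body was not computed, so these counts alone do not establish the cell type.

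Of the 8 strongest regions that were under 50% repeat-masked, 7 are shown by the 200 bp window that held the most motif matches, so that the letters behind the sequence comparison can be seen. All are on the plus strand of mm10 as given by the RefSeq GRCm38.p6 sequence, and each is named for the protein-coding gene with the nearest start. Capitals mark matches, on either strand, of AP-1 TGANTCA, CRE TGACGTCA, SOX ACAAAG, E-boxes CAGCTG and CATATG, TEAD GGAATG, ETS CCGGAAG and GC box GGGCGG, or of 3 longer motifs for a SOX pair, NFI and the thyroid hormone receptor. A match is a description of letters, and adjoining matches may share bases, as an AP-1 match and a CAGCTG match do in the Znrf2 window.
Wnt7b (chr15:85657990-85658189): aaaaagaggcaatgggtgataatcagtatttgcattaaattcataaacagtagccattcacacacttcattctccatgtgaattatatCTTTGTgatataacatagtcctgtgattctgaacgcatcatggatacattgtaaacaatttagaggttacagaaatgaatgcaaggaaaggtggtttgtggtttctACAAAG
Znrf2 (chr6:54759907-54760106): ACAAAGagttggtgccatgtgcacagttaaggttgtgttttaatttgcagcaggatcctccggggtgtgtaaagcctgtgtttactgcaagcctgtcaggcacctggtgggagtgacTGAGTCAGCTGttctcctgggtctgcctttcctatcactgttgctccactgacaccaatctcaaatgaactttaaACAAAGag
4930467E23Rik (chr8:19800406-19800605): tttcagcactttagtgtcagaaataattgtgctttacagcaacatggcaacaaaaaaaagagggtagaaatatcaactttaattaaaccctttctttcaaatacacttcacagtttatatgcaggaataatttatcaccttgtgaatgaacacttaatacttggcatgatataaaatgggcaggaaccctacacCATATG
Ccdc9 (chr7:16295037-16295236): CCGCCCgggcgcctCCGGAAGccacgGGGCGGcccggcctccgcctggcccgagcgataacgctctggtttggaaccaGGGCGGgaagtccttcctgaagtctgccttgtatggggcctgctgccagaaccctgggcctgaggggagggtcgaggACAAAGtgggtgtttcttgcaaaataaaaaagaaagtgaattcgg
Prim2 (chr1:33330713-33330912): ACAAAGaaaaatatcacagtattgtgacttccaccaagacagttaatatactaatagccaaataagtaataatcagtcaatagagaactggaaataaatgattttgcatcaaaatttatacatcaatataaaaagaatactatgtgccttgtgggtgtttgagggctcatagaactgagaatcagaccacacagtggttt
Ssc4d (chr5:135962733-135962932): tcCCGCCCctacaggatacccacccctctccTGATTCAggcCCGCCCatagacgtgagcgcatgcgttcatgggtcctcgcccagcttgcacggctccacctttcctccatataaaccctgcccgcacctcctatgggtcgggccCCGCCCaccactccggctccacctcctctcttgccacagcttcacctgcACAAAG
Mtmr4 (chr11:87595953-87596152): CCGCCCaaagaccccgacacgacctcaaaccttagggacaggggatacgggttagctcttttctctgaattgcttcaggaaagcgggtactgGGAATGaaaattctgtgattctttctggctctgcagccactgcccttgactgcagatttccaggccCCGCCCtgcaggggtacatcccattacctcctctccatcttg

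The windows near Wnt7b, Prim2 and 4930467E23Rik were AT-rich, with GC contents of 34.0%, 32.0% and 33.0%, and held SOX or CATATG matches alone. Those of Ccdc9, Ssc4d and Mtmr4 had 62.5%, 63.5% and 54.0% GC and held GC boxes. The Znrf2 window, at 48.0% GC, held an AP-1, a CAGCTG and SOX matches.

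The regions were weak peaks. The −log10 q that the peak caller gave them had a median of 1.70 (interval 1.69 to 1.72) and ran from 1.05 to 6.55. Wide distal proliferating peaks that did have a differentiating counterpart, 1680 shared regions, had a median of 2.53 (2.46 to 2.61). The mirror class, 2607 wide distal peaks found only in differentiating cells, had 1.63 (1.60 to 1.65). Only 3 of the 1956 regions reached a −log10 q of 5, 41 reached 3 and 456 reached 2, while 94.7% had a q of at most 0.05. The study's methods state a q cutoff of 0.05. As read here, the weakest q was 0.0995 in the proliferating list and 0.0899 among the regions. Fold enrichment over local background, as the caller gave it, had a median of 3.18 and a range of 1.91 to 4.47, close to 3.27 in the shared regions.

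Whether a wide distal peak lacked a counterpart went with its strength. Over all 28924 proliferating peaks, 70.8% had no differentiating counterpart. The share was 42.5% among the 4913 peaks of at least 1200 bp and 53.8% among the 3636 of these that were distal, the last being the share that defines the regions. In the other direction, 59.1% of 4411 wide distal differentiating peaks had no proliferating counterpart. Among wide distal proliferating peaks the share without a counterpart was 81.0% at a −log10 q of 1 to 1.5, 50.8% at 2 to 2.5 and 24.1% at 2.5 to 3. It was 7.50% at 3 to 5 and 1.89% (3 of 159) at 5 or more. The differentiating list showed a like fall, from 88.4% in the weakest class to 3.13% in the strongest.

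**Figure D1:**
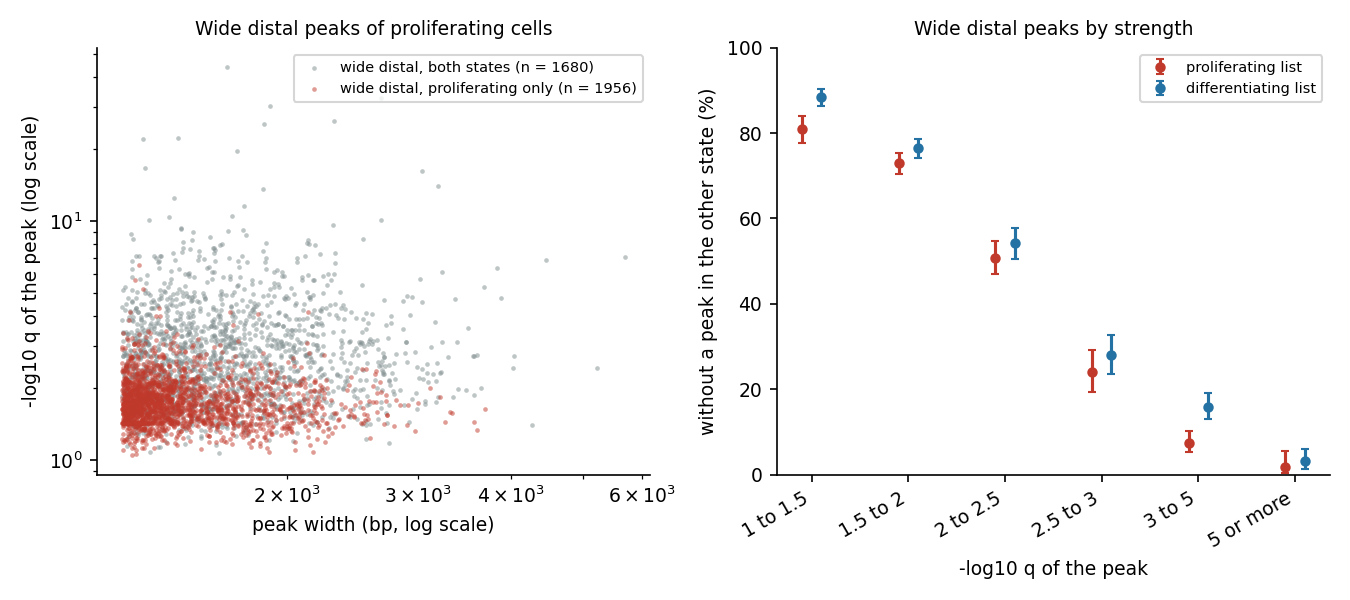
Left, peak width in bp against −log10 q, both on log scales, for the 1956 regions (red) and the 1680 shared wide distal proliferating peaks (grey); nearly all red points lie below a −log10 q of 3. Right, percent of wide distal peaks of each list with no peak in the other state, by −log10 q, with 95% exact intervals; in the proliferating list it falls from 81.0% to 1.89%.

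The regions had a median width of 1355.5 bp, 605 of them (30.9%) reached 1500 bp, 169 reached 2000 bp and 8 reached 3000 bp, and the widest had 3689 bp. Across the 1956 regions the rank correlation of width with −log10 q was -0.05, against 0.81 for fold enrichment with −log10 q, values that describe regions of 1 library. Among distal proliferating peaks, 78.9% of those 1000 to 1200 bp wide lacked a counterpart, as did 65.9% at 1200 to 1500 bp. The share was 41.9% at 1500 to 2000 bp, 32.7% at 2000 to 3000 bp and 15.4% (8 of 52) at 3000 bp or more. A counterpart needed only 1 shared base, and a wider peak offers more bases to share. The median −log10 q of all distal peaks was 1.72 in the first of these width classes and 2.36 in the last. The part of either in the fall was not tested. At the limit itself nothing changed abruptly in strength. The 394 regions of 1200 to 1249 bp had a median −log10 q of 1.68, and the 493 distal peaks of 1150 to 1199 bp without a counterpart had 1.65. Just inside lay peaks near Eapp, Ndufv3, Iqch, Cpne8 and Rgs17, each 1200 bp wide with a −log10 q of 1.96 to 2.97, and just outside lay peaks near Gpr182, Cth, Pmepa1, Sh3rf3 and Rnf216, each 1199 bp wide with 1.79 to 2.55.

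The strongest region lay at chr5:40184372-40185633 (mm10), in intergenic sequence 428897 bp upstream of the start of Hs3st1, which encodes a heparan sulfate sulfotransferase. Its −log10 q was 6.55 and its fold enrichment 4.47, and 88.3% of it was repeat-masked, so it is not shown as sequence. The next lay at chr15:85657351-85658599, 74878 bp upstream of Wnt7b, a secreted Wnt ligand, with a −log10 q of 5.65. Its fold enrichment of 2.69 ranked 1836 of 1956, so that the orders by q and by fold parted here. The third lay at chr6:54759872-54761149, 55767 bp upstream of Znrf2, a ubiquitin ligase gene, with 5.16 and a fold enrichment of 4.08.

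Regions below these included those near 4930467E23Rik (−log10 q 4.34), Ccdc9 (4.17), Prim2 (4.15), Ssc4d (4.08), Mtmr4 (4.00) and Fasl (3.99). Those of Ssc4d and Mtmr4 overlapped coding exons of these genes, while the other 8 of the 10 strongest regions were intergenic. A region over the gene C1qtnf5, 1203 bp wide, completed the 5 highest by fold enrichment, at 4.25, with those of Hs3st1, Prim2, Fasl and Mtmr4.

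The widest regions were not strong ones. An intronic region of Ppp2r2c, a brain-enriched regulatory subunit of protein phosphatase 2A, spanned 3689 bp at chr5:36886280-36889968 with a −log10 q of 1.63. Next came regions near Tuba3b (3600 bp, 1.34), Grik2 (3565 bp, 1.44), Ldhb (3333 bp, 1.57) and over Cat, which encodes catalase (3306 bp, 1.59). The remaining 5 of the 10 widest lay at Arhgap31, 1700016C15Rik, Pdzrn4, Khdrbs3 and Fam91a1, at 2965 to 3259 bp and a −log10 q of 1.32 to 1.99.

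By position, 256 regions (13.1%) touched a coding exon, 69 (3.53%) another exon and 624 (31.9%) introns alone, and 1007 (51.5%) were outside every protein-coding gene. A protein-coding gene was overlapped by 48.5% of the regions (46.3 to 50.8), against 53.7% (51.8 to 55.7) of the differentiating-only regions and 56.8% (54.4 to 59.2) of the shared ones. Such genes span 39.3% of the sequence. A long noncoding RNA gene was overlapped by 9.05% (7.81 to 10.4) of the regions, close to 9.13% in the differentiating-only class and below 16.0% (14.2 to 17.8) in the shared class. No annotated gene of any kind was overlapped by 846 regions (43.3%).

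The regions lay far from gene starts, a median of 55535 bp (51172 to 61197) away. The differentiating-only regions lay at 52065 bp (49027 to 56883) and the shared ones at 31556.5 bp (28476 to 34271). A start within 5000 bp was present for 5.57% of the regions and for 13.8% of the shared ones. The nearest differentiating peak was a median of 14526 bp away, within 1000 bp for 106 regions, within 10000 bp for 788 and within 100000 bp for 1775. Most regions thus had acetylated neighbours in both states: within 50 kb on either side, the median region had 2 other proliferating and 2 differentiating peaks, and 404 regions (20.7%) had no differentiating one. Of the 1956, 371 (18.97%) had another region of the class within 50000 bp. The share was 22.7% in the differentiating-only class and 30.1% in the shared class.

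**Figure D2:**
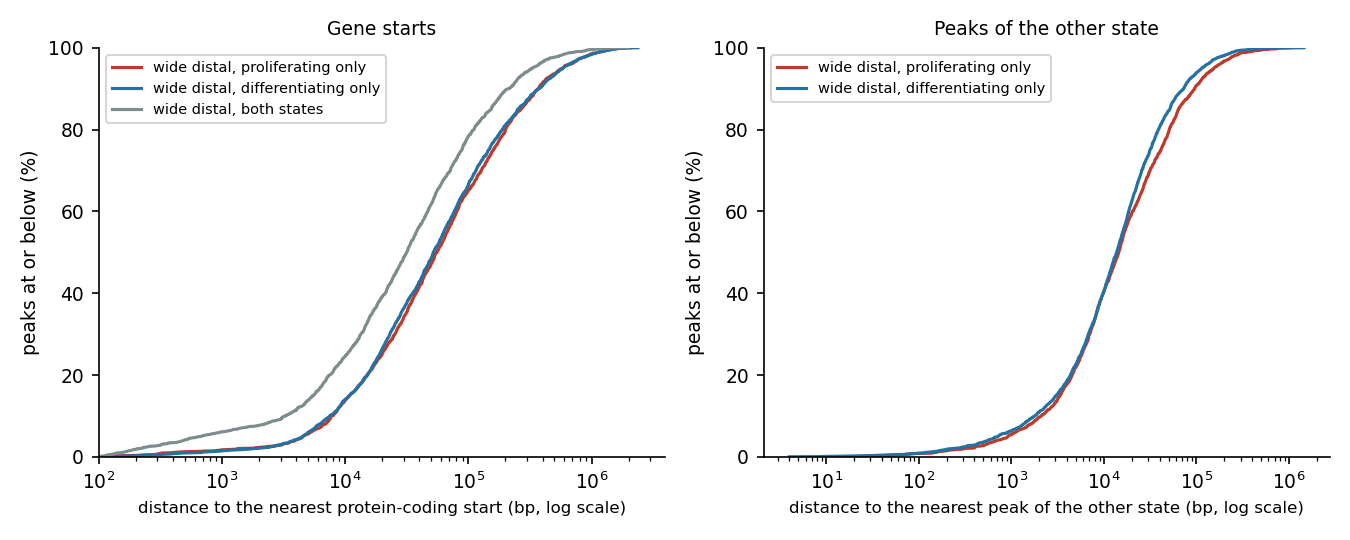
Percent of regions at or below a given distance (bp, log scale) from the nearest protein-coding gene start (left) and from the nearest peak of the other state (right). The proliferating-only (red) and differentiating-only (blue) curves run together, with medians of 55535 and 52065 bp on the left, while shared regions (grey, left) lie nearer to starts, at 31556.5 bp.

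The regions were spread unevenly over the chromosomes. Chromosome 1 held 319, chromosome 15 held 266, chromosome 10 held 235 and chromosome 5 held 193, together 51.8% of all, on 21.4% of the sequence. The same chromosomes held 41.0% of all proliferating peaks, 52.0% of the differentiating-only regions and 34.0% of the shared ones. Per Mb of sequence the order was chromosome 15 (2.64), 10 (1.85), 1 (1.66), 5 (1.30) and 19 (1.19), against a median of 0.565 over chromosomes 1 to 19. Among chromosomes 1 to 19, chromosome 13 was lowest with 13 regions (0.111 per Mb), followed by chromosome 8 with 16. Chromosome X had 5 (0.0306 per Mb) and chromosome Y 0. Over chromosomes 1 to 19 the highest density was 23.8 times the lowest, a wider range than the 6.61 times of all proliferating peaks. The differentiating-only class had a range of 18.3 times and the shared class one of 4.20 times. The low end for the regions rests on the 13 of chromosome 13.

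That order belonged to the list as a whole. Over chromosomes 1 to 19, regions per Mb and all proliferating peaks per Mb, which include the regions, had a Pearson r of 0.98 and a Spearman rho of 0.97 (n = 19 chromosomes of the same library). Against the differentiating-only class, which comes from the other library, the values were 0.98 and 0.97, and against the shared class 0.91 and 0.91. The share of a chromosome's proliferating peaks that belonged to the class still ran from 2.54% on chromosome 8 to 9.46% on chromosome 15. Chromosomes 1, 10 and 15 held 41.9% (39.7 to 44.1) of the regions and 44.5% (42.6 to 46.4) of the differentiating-only regions, but 24.9% (22.9 to 27.1) of the shared ones, on 15.8% of the sequence. Of all proliferating peaks, 33.1% lay there.

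**Figure D3:**
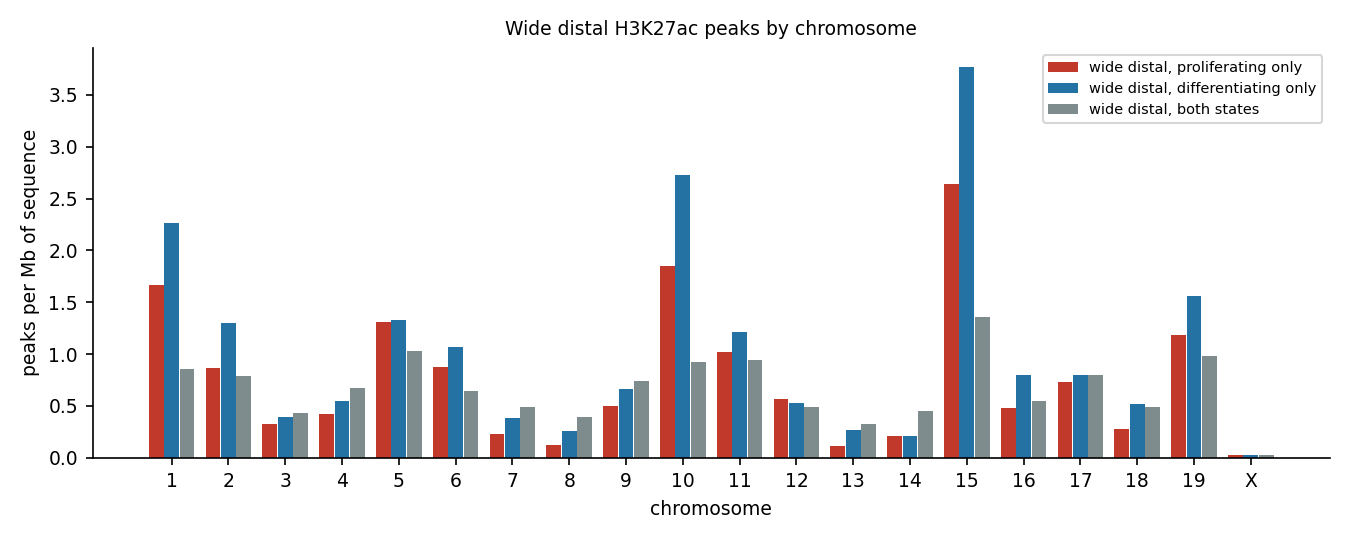
Wide distal peaks per Mb of sequence on each chromosome, for proliferating-only (red), differentiating-only (blue) and shared (grey) regions. Red and blue bars are highest on chromosome 15, at 2.64 and 3.77 per Mb, where the grey bar reaches 1.36.

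Within chromosomes the regions were grouped further. Of 256 full bins of 10 Mb, 37 held none, the median held 5, and 24 bins with at least 20 held 694 regions (35.5%). Of these 24 bins, 7 were on chromosome 10, 6 on chromosome 1, 5 on chromosome 15, 4 on chromosome 5 and 1 each on chromosomes 2 and 19. The fullest was 60 to 70 Mb of chromosome 15 with 59 regions, followed by 30 to 40 Mb of chromosome 5 with 47. On chromosome 5 the 4 bins from 10 to 50 Mb held 30, 37, 47 and 21 regions, and the 5 bins from 50 to 100 Mb held 1, 1, 2, 0 and 0. In the same 5 bins the whole proliferating list had 17 to 37 peaks a bin, against 147 to 486 in the 4 before.

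Strength moved with this grouping. In the 24 bins with at least 20 regions, these had a median fold enrichment of 3.02 (3.00 to 3.06), against 3.25 (3.23 to 3.26) elsewhere, and a median −log10 q of 1.64 against 1.73. All proliferating peaks showed the same, with 3.14 in these bins and 3.39 elsewhere. The regions of chromosome 5 had the lowest median fold enrichment of any chromosome, 2.78, and the largest median width among chromosomes 1 to 19, 1431 bp. No input library is named for these lists, and the part of local read density in the grouping was not tested.

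In all, 817 protein-coding genes hosted a region, 1491 were nearest to one by their start, and 1718 were either, which is 7.83% of the 21951 annotated. Host genes were long, with a median of 106.7 kb against 17.4 kb for all protein-coding genes, so that they offer more sequence to overlap. A single region lay in 699 of them, and 118 held 2 or more. Most regions were found in Anks1b, a postsynaptic scaffold gene, and Lhfpl3, a precursor-enriched membrane protein gene, with 6 each. The genes 9330182L06Rik, Cdh18 (a cadherin), Nkain2 and Pdzrn4 held 5 each. These 6 genes are 216 kb to 1201 kb long, and the 5 regions of the longest, Nkain2, were spread over 1095 kb.

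At Lhfpl3, 7 regions had it as host or nearest gene. They were 1224 to 2172 bp wide, with fold enrichments of 2.04 to 2.85, under the median of the class, and −log10 q of 1.21 to 3.85. The whole lists linked 48 proliferating and 41 differentiating peaks to this gene, 7 of them shared wide regions, and its promoter carried a peak in both states. Of the 7, 6 lay in the gene and 1 was intergenic, upstream of its start, and they were 553 to 5553 bp from a differentiating peak.

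By nearest start, most regions belonged to Hs3st1 (15) and Myc (13), then Fam19a5 and Rab28 (11 each) and Cdh18 (9). Of the 15 at Hs3st1, 14 were upstream, 10.3 to 900.2 kb from the start, and its promoter had a peak in the proliferating list and none in the differentiating list. At Rab28 the −log10 q ran from 1.37 to 2.27. These genes border long stretches without another protein-coding start, as the distances of up to 974 kb at Rab28 show. They lie on chromosomes 5 and 15, and the host genes named above on chromosomes 5, 10 and 15. There the whole proliferating list had 15.5, 23.7 and 27.9 peaks per Mb in that order, beside 4.22 on chromosome 14. Myc lies in the fullest bin, 60 to 70 Mb of chromosome 15, with 59 regions and 409 proliferating peaks. The part of this density in the gene counts was not tested.

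Myc, a transcription factor that drives growth and cell division, had its 13 regions over 935 kb of chromosome 15, 5 of them upstream and 8 downstream of the start, at 22.2 to 542 kb. Their −log10 q ran from 1.43 to 2.11 with a median of 1.70, and their fold enrichments from 2.66 to 3.02. The strongest, chr15:61846078-61847400, was 93.5% repeat-masked and lay 778 bp from a differentiating peak. The nearest to the gene, chr15:61961830-61963166, lay 22225 bp upstream with a −log10 q of 1.88. The same gene was nearest to 11 differentiating-only regions, 2 shared ones, and 80 proliferating and 57 differentiating peaks in all, and its promoter had a peak in both states. The noncoding RNA gene Pvt1, next to Myc, hosted 3 of the regions, more than any other long noncoding RNA gene, and was picked out after its count was seen.

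Few host genes were without differentiating peaks. Of the 118 genes that held 2 or more regions, 4 (3.39%) had no differentiating peak over their body, and they were looked up after the values were seen. The 118 genes had a median of 7 proliferating and 6 differentiating peaks. The share among all genes, or among genes of like length, was not computed. Adgb held 3 regions among 7 proliferating peaks and 0 differentiating ones, Tnc 2 among 3, and Nrcam and Zdhhc22 2 among 2. Tnc encodes the matrix protein tenascin C and Nrcam a neuronal cell adhesion molecule. The 2 Tnc regions, chr4:64001966-64004019 and chr4:64029466-64030771, lay 294660 and 267908 bp from a differentiating peak.

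The promoters of the nearest genes, which the choice of regions did not use, carried a called peak in a like share of cases in both lists. Of 1491 nearest genes, 504 (33.8%, 31.4 to 36.3) had a proliferating promoter peak and 546 (36.6%, 34.2 to 39.1) a differentiating one. For the genes nearest to differentiating-only regions the shares were 33.6% (31.5 to 35.8) and 36.1% (34.0 to 38.3), and for all protein-coding genes 23.7% and 27.7%. Promoters with a peak in the proliferating list alone belonged to 8.58% (7.21 to 10.1) of the nearest genes, 9.27% (8.004 to 10.7) of those nearest to differentiating-only regions and 6.13% of all genes. Genes nearest to a region were longer than genes in general, with a median of 44.1 kb, and neither class of genes was matched for length. The 2 classes shared 501 nearest genes, 33.6% of those of the regions and 26.2% of those of the differentiating-only class. That class was nearest to 1910 of all 21951 protein-coding genes.

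The gene lists were chosen with earlier results of these data known, so their shares are descriptions and not tests of an excess. Of 31 annotated growth factor and MAPK response genes, 9 (29.0%, 14.2 to 48.0) were host or nearest gene of a region, beside 7.83% of all genes. They were Ccnd1, Egr2, Etv4, Etv5, Fosl2, Junb, Myc, Phlda1 and Spry2. The differentiating-only class was linked to 25.8% of the same list, beside 10.1% of all genes, a value within that interval. The shared class was linked to 35.5% of it, beside 7.09% of all genes. The Etv5 region, chr16:22508601-22510003 in an intron of the neighbouring Dgkg, had a −log10 q of 3.12 and a fold enrichment of 3.67. Etv5 encodes an ETS factor downstream of growth factor receptors, and its promoter had a peak in the proliferating list and none in the differentiating one. The Junb region, chr8:84977200-84978418, overlapped the coding exon of this AP-1 subunit gene 300 bp from its start, with a −log10 q of 1.44 and 65.5% GC. Junb also had a proliferating promoter peak, and 0 differentiating peaks were linked to it. Promoters of Etv4 and Phlda1 went the other way, being marked in differentiating cells alone. Those of Ccnd1, Fosl2, Myc and Spry2 were marked in both states and that of Egr2 in neither. Over all 31 genes of the list, 17 promoters carried a peak in each state. Of all protein-coding genes, 23.7% had a promoter peak in the proliferating and 27.7% in the differentiating list.

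Of 30 oligodendrocyte lineage transcription factors, 8 (26.7%, 12.3 to 45.9) were linked to a region, beside 7.83% of all genes, namely Hes1, Nfia, Nkx2-2, Sox11, Sox2, Sox5, Sox9 and Tcf7l2. The share was 33.3% for the differentiating-only class, beside 10.1% of all genes, and 56.7% for the shared class, beside 7.09%. Sox5, which keeps precursors immature, held an intronic region, chr6:144768313-144769690, 12287 bp from its start, with a −log10 q of 2.32 and 98244 bp from a differentiating peak. At their own promoters, Tcf7l2, Sox9 and Sox5 had a peak in the proliferating list alone and Hes1, Sox11 and Sox2 in both lists. Nfia had one in the differentiating list alone and Nkx2-2 in neither. Sox10, Olig1 and Olig2 were linked to no region.

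Adhesion, matrix and axon guidance genes had 15 of 44 members linked (34.1%, 20.5 to 49.9), beside 7.83% of all genes. The share was also 34.1% for the differentiating-only class, beside 10.1% of all genes, and 18.2% for the shared class, beside 7.09%. These genes are long, at a median of 155 kb. They were Cdh4, Epha4, Ephb2, Fn1, Itga4, Itga6, Lama2, Lama4, Nrp2, Plxna2, Plxna4, Robo2, Slit3, Tnc and Tnr. The Lama2 region had a −log10 q of 2.19, that of Tnr 2.16 and that of Itga4 2.13.

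Lists of other roles were closer to all genes in their links to the regions. Of all genes, 7.83% were linked to a region, 10.1% to a differentiating-only region and 7.09% to a shared one. Of 32 precursor receptors and proteoglycans, a list that also held the membrane protein gene Lhfpl3, 3 (9.38%, 1.98 to 25.02) were linked. These were Lhfpl3, Lrp1 and Notch2, so that Pdgfra, Cspg4 and the ErbB genes were not. For this list the share was 18.75% for the differentiating-only class and 37.5% for the shared class. Of 34 cell cycle and replication genes 4 (11.8%, 3.30 to 27.5) were linked, Ccnd1, E2f2, Top2a and Tyms, beside 8.82% for the differentiating-only class and 23.5% for the shared class. A 2199 bp region overlapped a coding exon of Top2a, the topoisomerase of dividing cells. Of 30 myelin genes 1 (3.33%, 0.0844 to 17.2) was linked, Tspan2, beside 16.7% for the differentiating-only class and 23.3% for the shared class. The Tspan2 regions lay 4851 and 44036 bp upstream of its start with a −log10 q of 1.61 and 1.88.

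**Figure D4:**
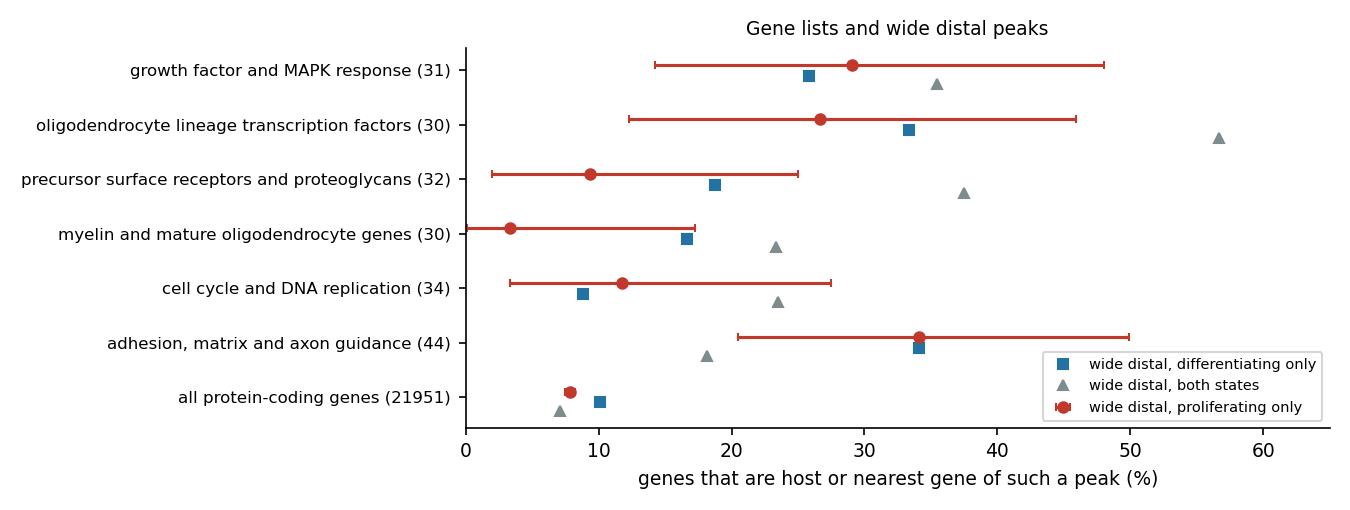
Percent of each gene list (number annotated in brackets) that was host or nearest gene of a proliferating-only region (red, with 95% exact interval), a differentiating-only region (blue) or a shared region (grey). For the growth factor and adhesion lists red lies at 29.0% and 34.1% beside 7.83% of all genes, and the blue squares lie within its intervals.

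In base composition the regions were like their differentiating-only counterparts and unlike the shared regions. Median GC content was 44.2% (43.9 to 44.5), against 44.0% (43.8 to 44.3) and 49.4% (48.9 to 49.9), and windows of 1200 bp over the genome had 41.5%. CpG dinucleotides per 100 bases had a median of 0.863 (0.825 to 0.887) in the regions, 0.865 in the differentiating-only class, 1.40 in the shared class and 0.667 in genome windows. Repeat-masked sequence made up a median of 19.5% (18.6 to 20.4) of a region, against 19.1% and 12.9%, and 25.8% in genome windows. At least 50% was masked in 187 regions (9.56%) and in 54 shared ones (3.21%).

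Motif shares in the central 1200 bp followed the same order. The E-box CAGCTG, of the kind bound by basic helix-loop-helix factors, was found in 42.9% (40.7 to 45.2) of the regions, 46.8% (44.8 to 48.7) of the differentiating-only regions, 60.2% (57.9 to 62.6) of the shared ones and 35.3% of genome windows. The GC box was found in 13.3% (11.8 to 14.9), 15.8% (14.4 to 17.2), 36.6% (34.3 to 39.0) and 10.1%. The AT-richer E-box CATATG ran the other way, at 28.2% (26.2 to 30.2), 28.2%, 17.5% (15.7 to 19.4) and 32.2%. The AP-1 motif, bound by Fos and Jun factors, differed little between classes, at 31.7% (29.7 to 33.9) of the regions and 31.0% of genome windows. SOX matches were in 67.1% and 69.8%, and TEAD matches in 51.5% and 49.97%.

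The remaining motifs were rarer. ETS matches were in 97 regions (4.96%, 4.04 to 6.02) against 4.26% of differentiating-only regions, 9.17% of shared ones and 3.29% of genome windows. CRE matches were in 11 regions (0.562%). The SOX pair and the thyroid hormone receptor repeat each matched 1 region and the NFI motif 3, with 0.0186%, 0.0473% and 0.0729% of genome windows in that order. GC content moved with these shares, and its part in them was not tested.

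**Figure D5:**
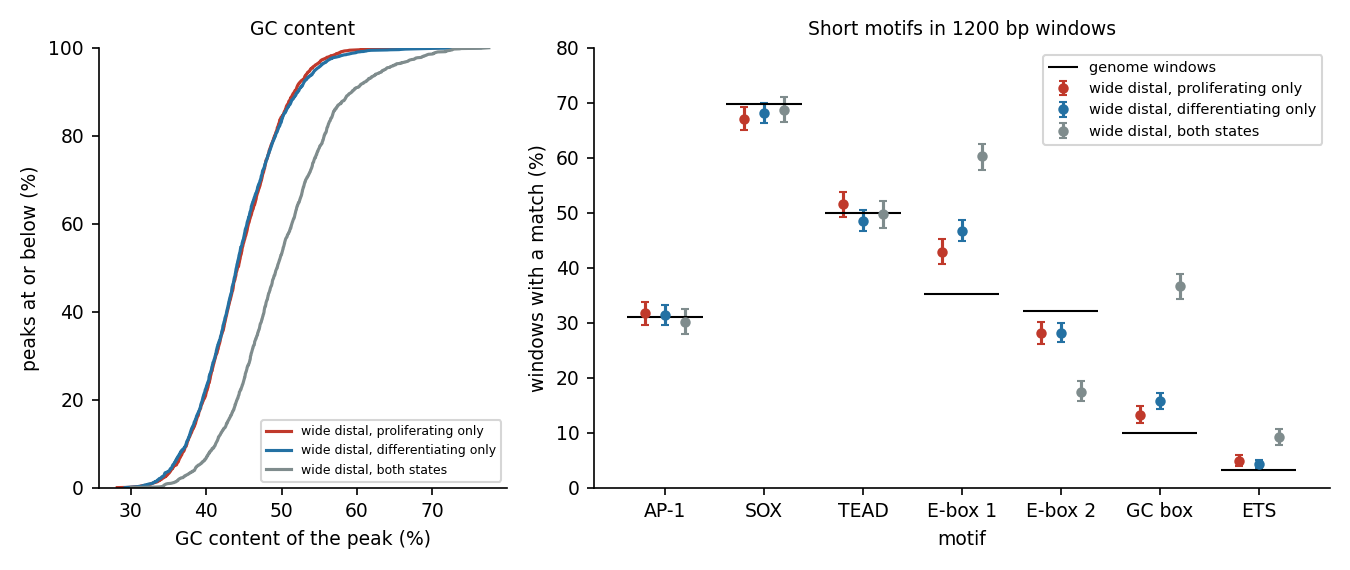
Left, percent of regions at or below a given GC content (%); the proliferating-only (red) and differentiating-only (blue) curves overlie each other, with medians of 44.2% and 44.0%, and the shared curve (grey) is shifted to 49.4%. Right, percent of central 1200 bp windows with a match of each motif, with 95% exact intervals, and the share of genome windows as a black line; E-box 1 is CAGCTG and E-box 2 is CATATG.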

How the data were processed

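H3K27ac ChIP-seq of Oli-neu cells was deposited as 1 broad peak list per state. Per the labels and the study's methods, the authors aligned reads to GRCm38/mm10 with Bowtie2 2.1.0, removed PCR duplicates and blacklisted stretches, and called broad peaks with MACS2 2.0.10; SAMtools and bedtools were also named. Each deposited line held a position and, in 1 text field, a fold enrichment, a −log10 p and a −log10 q, read in that order. Read numbers per region are not given in the deposited lists. Depth is therefore unknown, and a peak missing from the other list may lie under its threshold there.

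Python 3.11.15, numpy 2.4.6, pandas 2.3.3, scipy 1.17.1 and matplotlib 3.10.9 were used. A counterpart shared at least 1 base. Gene models came from GENCODE M21 on the same build and sequence from RefSeq GRCm38.p6, whose lower-case letters gave repeat masking. Motifs were searched on both strands in the central 1200 bp of each region and in 2132397 genome windows. Shares carry 95% exact (Clopper-Pearson) intervals and medians exact order-statistic ones. The steps were tested on simulated peaks and sequence.

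The regions and gene lists were chosen with earlier results of these data known. Named were, except for 1 region that is not reported here, the 10 strongest, 10 widest and 5 highest by fold enrichment, those at genes of the lists (the 10 strongest with values), the 5 first host and 5 first nearest genes and the 5 peaks on each side of the width limit. Other genes of the lists given values, with Adgb, Nrcam, Zdhhc22 and Pvt1, were picked after values were seen. For 8 results, 14 alternatives were computed.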

Additional observations from a re-analysis of the deposited data

How the results depend on the processing

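With 14 alternatives for each of 8 results, 74 of the recomputed values stayed within the interval of the main value (counts within 1.5 times of it) and 38 moved outside; the cause was not tested beyond what each change leaves out. No paired analysis was possible because each state had 1 library and no replicate number pairs them. No replicate could be left out for the same reason.

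The number of regions followed the limits set on width and strength, at 4097 for at least 1000 bp, 605 for 1500 bp, 169 for 2000 bp, 456 for a −log10 q of at least 2, 3 for at least 5, and 1168 with no differentiating peak within 10000 bp. The percent that overlapped a protein-coding gene was 51.4 at 1500 bp, 54.4 at 2000 bp, 44.6 away from differentiating peaks, 45.0 with every transcript start in the promoter rule, 52.2 at a −log10 q of 2, 0.0 at 5 and 50.9 for regions under 50% masked. On chromosomes 1, 10 and 15 lay 44.8% at 1500 bp, 46.7% at 2000 bp, 37.2% away from differentiating peaks, 39.2% when under 50% of the peak was covered by differentiating peaks, 36.8% at a −log10 q of 2 and 33.3% at 5. The median −log10 q was 1.68 at 1000 bp, 1.65 at both 1500 bp and 2000 bp, 1.75 under the coverage rule, and 2.22 and 5.65 at the 2 limits on itself.

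Median GC was 43.6% at 2000 bp, 43.7% away from differentiating peaks, 44.8% under the coverage rule, 47.9% at a −log10 q of 5 and 44.5% under the masking limit. The median masked share was 18.3% under the coverage rule and 17.8% under the masking limit. Nearest genes with a proliferating promoter peak were 37.6% at 2000 bp, 30.1% away from differentiating peaks, 36.7% at a −log10 q of 2 and 66.7% at 5, and those with a differentiating one 32.9% away from differentiating peaks and 66.7% at 5. The values at 5 rest on 3 regions. As the lists carry no depth, a region weakly acetylated in differentiating cells cannot be told apart from one without the mark.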

Other observations

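The long noncoding RNA genes that the regions touched numbered 178, and 125 regions overlapped such a gene and no protein-coding one. After Pvt1, with 3 regions, came 9 genes with 2 each, among them 6030443J06Rik on chromosome 5 and D030024E09Rik on chromosome 15. A microRNA gene was overlapped by 5 regions, 0.256% (0.0831 to 0.596) of the class, against 3 of the differentiating-only regions and 10 of the shared ones. The overlapped genes were Mir7212, Mir6980, Gm27525, Gm27618 and Gm25149.

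Distal proliferating peaks narrower than 1200 bp without a differentiating counterpart numbered 17405. They lay a median of 54898 bp from a start and overlapped a protein-coding gene in 49.3% (48.5 to 50.01) of cases, close to the wide regions. Their median −log10 q was 1.81 and 15.2% of them were at least 50% repeat-masked, against 1.70 and 9.56% for the wide regions. They were nearest to 74.7% of the genes nearest to a wide region, and to 7254 of all 21951 protein-coding genes.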
